A study of Mus with 3 samples.

Results

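The cells described here were tumor macrophages, 76 of the 5600 barcodes with 500 or more gene UMIs (unique molecular identifiers, each standing for 1 captured RNA molecule) in a single-cell library of MC38 tumors. MC38 is an implanted mouse colon cancer line, so the tumor cells did not carry the genotype of the host. Tumors were taken on day 16 from 3 kinds of mice. WT mice were the controls, either C57BL/6 or dLck-Cre, and the sources used here do not say which of them gave the tumor. RARα-KO mice carried dLck-Cre, a Cre driven by the distal Lck promoter, and floxed Rara alleles (Rara L/L), so that retinoic acid receptor α was deleted in T cells. RARα-TG mice expressed a Rara transgene from the CD2 promoter, which is active in T cells. Neither driver is aimed at macrophages. Each tumor suspension was stained with the hashtag antibody of its genotype. From it 30000 CD45.2+ CD3+ T cells were then sorted and mixed with 10000 cells that had not been sorted, and the 3 genotypes were combined into 1 library for 5′ gene expression, hashtag and T cell receptor (TCR) sequencing. The macrophages therefore came from the smaller, unsorted share. The labels also give spleen and naive CD8 T cells as the source, which does not match the tumor protocol beside them.

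Macrophages were the barcodes without a TCR clonotype that held at least 5 UMIs of C1qa, C1qb and C1qc together, at least 3 UMIs of Lyz2 and fewer than 10 UMIs of Col3a1, Col1a2 and Sparc together. Of 1898 barcodes without a clonotype, 76 met these limits. By hashtag, 20 were from WT, 32 from RARα-KO and 12 from RARα-TG tumors, and the other 12 had no single dominant hashtag. Each genotype was 1 multiplexed sample, and the sources used here do not give the number of mice behind it. No test between genotypes was therefore possible, cells were not treated as replicates, and UMIs were summed over the cells of a genotype and given as CPM, the UMIs of a gene per 1000000 gene UMIs of the same cells. The intervals are 95% exact intervals and cover counting error only, not the spread between mice or between cells.

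Macrophages engulf dying cells and debris, present antigen to T cells and set the inflammatory tone of a tissue. Interferon γ, made mainly by activated T cells and NK cells, drives them to express Cxcl9, Cxcl10, guanylate-binding proteins and MHC molecules. Interleukin 4 and related signals instead favor the arginase Arg1, the lectins Mgl2 and Mrc1, and the secreted proteins Chil3 and Retnla. Retinoic acid receptor α is a nuclear receptor that controls transcription on binding retinoic acid.

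The values that chose the cells are given as a description. The C1q sum had a median of 39 UMIs with a range of 5 to 511, and Lyz2 had a median of 30.5 with a range of 3 to 727. The collagen and Sparc sum was 0 in 73 cells and never above 1. Just inside the C1q limit, 7 cells had a C1q sum of 5 to 9 and an Lyz2 level of 4291 CPM, and just outside it 11 cells with a sum of 2 to 4 had 3208 CPM. Just inside the Lyz2 limit were 6 cells with 3 to 5 UMIs, and just outside were 11 cells with fewer than 3. A single cell met the other limits but held 10 or more collagen and Sparc UMIs. Cells just outside the C1q limit had 58.1 CPM of Csf1r, which encodes the receptor of the macrophage growth factor CSF1, against 337 CPM just inside. Tyrobp, Apoe and Cd68 were also lower outside it, but Arg1 was higher (2962 CPM outside and 629 CPM inside). The Lyz2 limit divided the cells less clearly. Csf1r was 267 CPM outside it and 261 CPM inside, and Tyrobp was 2047 and 1604 CPM. Apoe, Cd68 and Arg1 were lower outside the Lyz2 limit.

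**Figure D1:**
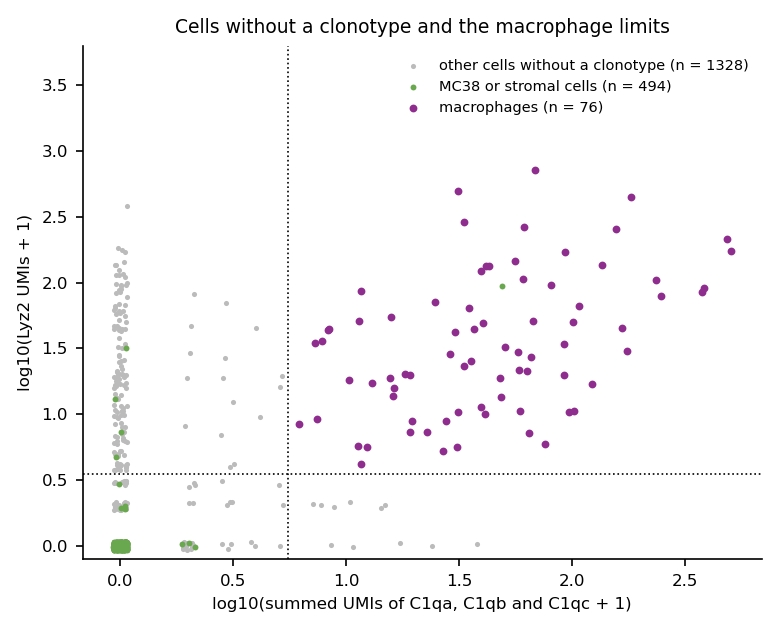
Each point is 1 barcode without a clonotype and with 500 or more gene UMIs. The horizontal axis is log10 of the summed C1qa, C1qb and C1qc UMIs plus 1, the vertical axis is log10 of the Lyz2 UMIs plus 1, and points are shifted slightly at random so that they do not hide each other. Dotted lines mark the limits of 5 C1q UMIs and 3 Lyz2 UMIs. The 76 macrophages fill the upper right, few barcodes lie just left of or below the lines, and the 494 MC38 or stromal cells (10 or more collagen and Sparc UMIs) lie almost all near 0 on both axes.

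The label fitted the cells. The 16 macrophage genes that the limits did not use were all detected, and their sum was 18531 CPM for WT, 18459 CPM for RARα-KO and 19440 CPM for RARα-TG cells. Tyrobp and Fcer1g, which encode signaling adaptors of myeloid receptors, had UMIs in all 20, 32 and 12 cells. Cd68, a lysosomal glycoprotein of macrophages, had UMIs in 19 of 20, 29 of 32 and 12 of 12 cells. Adgre1, which encodes F4/80, was sparse, with 19, 33 and 13 UMIs in 8, 14 and 7 cells. Csf1r was present at 494, 232 and 227 CPM. Markers of other cells were thin. Of 9 neutrophil genes 3 had a UMI, with 9, 13 and 3 UMIs in 5, 9 and 3 cells, while S100a9, Ly6g, Cxcr2 and Retnlg had none. Of 10 dendritic cell genes 5 had a UMI, with 5, 2 and 6 UMIs in 5, 2 and 6 cells and at most 1 per cell, while Flt3, Xcr1, Siglech and Zbtb46 had none. The dendritic cell genes were thus at 23.1 CPM for WT, 6.43 CPM for RARα-KO and 45.4 CPM for RARα-TG, and their part in the values below was not tested. Of 5 B cell genes 2 had a UMI, with 4, 4 and 2 UMIs, and Cd79a and Ms4a1 had none. The median depth was 9879 gene UMIs per WT, 8804.5 per RARα-KO and 12221.5 per RARα-TG cell, so that the groups rested on 216393, 310856 and 132200 UMIs. The RARα-TG values therefore had the widest counting intervals.

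T cell RNA was checked because T cells made up most of the library. The 12 T cell markers (Cd3d, Cd3e, Cd3g, Trac, Trbc1, Trbc2, Cd8a, Cd8b1, Lck, Thy1, Cd2 and Cd28) summed to 134 CPM for WT, 96.5 CPM for RARα-KO and 7.56 CPM for RARα-TG macrophages, against 7780 CPM in the 3702 T cells (barcodes with a clonotype) and 25.4 CPM in MC38 or stromal cells. A single WT cell held 28 of the 29 WT marker UMIs, and a single RARα-KO cell held 23 of 30. Without these 2 cells the sum was 4.96 CPM in WT and 23.2 CPM in RARα-KO, and without the 1 RARα-TG cell that held a marker UMI it was 0. The 12 macrophages without a dominant hashtag differed: 9 of them had 2 or more T cell marker UMIs, and their sum was 3520 CPM. They entered no comparison between genotypes. Of the 12 markers, 9 had a UMI in a macrophage with a genotype, and Trbc1, Trbc2 and Cd28 had none. The 9 cytotoxic genes, such as Gzmb and Nkg7, summed to 83.2, 132 and 30.3 CPM in the 3 genotypes. A TCR contig that was not part of a called clonotype was found in 34 of 76 macrophages (44.7%, interval 33.3 to 56.6%). The share was 30% for WT, 50% for RARα-KO and 33.3% for RARα-TG macrophages, with intervals that overlapped. It was 37.4% in MC38 or stromal cells, which were deeper (median 27759.5 gene UMIs against 9516 in macrophages). A further 11 barcodes met every macrophage limit but carried a clonotype. All 11 had T cell marker UMIs, with a median of 38, and they were not counted as macrophages.

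Macrophages made up a like share of the barcodes without a clonotype in each genotype. The share was 4.11% (20 of 487, interval 2.53 to 6.27%) in WT, 4.51% (32 of 709, 3.11 to 6.31%) in RARα-KO and 4.72% (12 of 254, 2.46 to 8.11%) in RARα-TG, and the intervals overlapped. The share among macrophages and other Lyz2 cells together was 36.4% for WT, 31.4% for RARα-KO and 35.3% for RARα-TG, where other Lyz2 cells had 3 or more Lyz2 UMIs but fewer than 5 C1q UMIs. The suspension was pooled with a sort, so these shares are not shares of the tumor.

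To ask which programs differed with the T cell genotype, levels were compared between WT and RARα-KO macrophages and between WT and RARα-TG macrophages. Both comparisons used the same WT cells. A gene was counted as 2-fold higher or lower by its ratio of CPM if its mean CPM over the 3 genotypes was 50 or more. Over all such genes, 7.52% (186 of 2472) were 2-fold or more higher and 9.1% (225) were 2-fold or more lower in RARα-KO than in WT macrophages. In RARα-TG macrophages 6.35% (157 of 2471) were higher and 10.1% (249) were lower. The median log2 ratio over all genes was −0.09 for RARα-KO and 0.01 for RARα-TG. The split between higher and lower genes moved with the way of counting. With 1000 UMIs drawn from each cell, which also gives each cell the same weight and leaves out 1 WT and 1 RARα-KO cell, 295 genes were higher and 228 lower in RARα-KO, and 179 were higher and 178 lower in RARα-TG. Without the cell with the most UMIs of each gene in each genotype, 250 were higher and 198 lower in RARα-KO. The genotypes were also spread unevenly over 3 clusters of macrophages, described at the end. All 12 RARα-TG cells lay in the second cluster, together with 11 WT and 7 RARα-KO cells. In the first cluster 14 of the 16 cells were RARα-KO. The counts of list members below were read against the shares at full depth. The lists were chosen with earlier results of these data known. Their counts are therefore descriptions and not independent evidence of a direction.

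**Figure D2:**
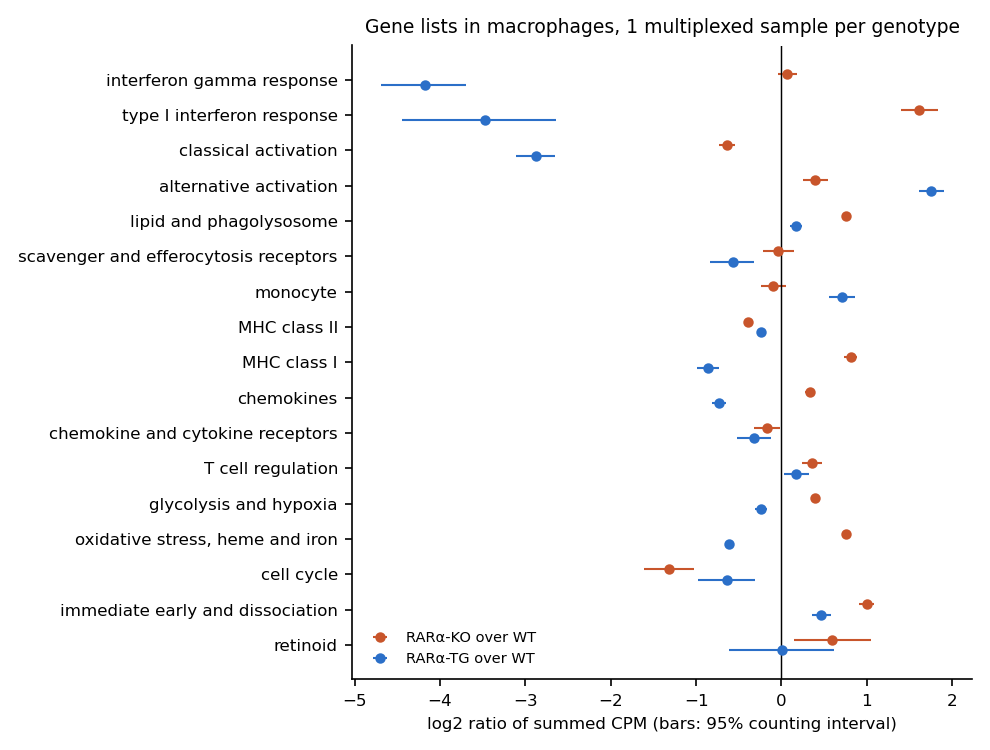
Each row is a gene list, and the horizontal axis is the log2 ratio of its summed CPM in RARα-KO (orange) or RARα-TG (blue) macrophages over WT macrophages, with 95% counting intervals as bars. The interferon γ, type I interferon and classical activation lists lie at −4.17, −3.47 and −2.88 in RARα-TG and the alternative activation list at 1.75, while in RARα-KO the type I interferon list lies at 1.61 and the cell cycle list at −1.32.

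Interferon γ response genes were almost absent from RARα-TG macrophages. The 15 genes, among them those for chemokines, the transcription factor Irf1 and GTPases that act against intracellular microbes, summed to 1064 UMIs in WT (4917 CPM), 1601 in RARα-KO (5150 CPM) and 36 in RARα-TG cells (272 CPM). The log2 ratio of the sums was −4.17 (interval −4.70 to −3.70) in RARα-TG and 0.07 (−0.05 to 0.18) in RARα-KO. Of 14 genes above the CPM limit, 12 were 2-fold or more lower in RARα-TG and none was higher, with a median log2 ratio of −3.30 (−2.14 at 1000 UMIs per cell), beside 10.1% of all genes. The median cell had 1268 CPM for WT, 4466 CPM for RARα-KO and 175 CPM for RARα-TG, and the highest RARα-TG cell, at 850 CPM, lay below the WT median.

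The chemokines Cxcl9 and Cxcl10, which attract T cells through CXCR3, gave the widest contrast. Cxcl10 (ENSMUSG00000034855, chr5:92346638-92348889, GRCm38.p6) had 313 UMIs in 10 of 20 WT cells, 180 UMIs in 14 of 32 RARα-KO cells and none in 12 RARα-TG cells. Its level was 1446 CPM in WT and 579 CPM in RARα-KO (log2 ratio −1.32, −1.59 to −1.05), and it was at least 63.7-fold lower in RARα-TG, taking the floor of a count of 0 as 3 UMIs over the group. Cxcl9 had 166 UMIs in 6 WT cells, 20 in 8 RARα-KO cells and none in RARα-TG, which was 11.9-fold lower in RARα-KO and at least 33.8-fold lower in RARα-TG. At equal depth, with 1000 UMIs drawn from each cell, Cxcl10 was found in 26.3% of the WT, 19.4% of the RARα-KO and 0% of the RARα-TG cells. As a background, 5.47 to 8.29% of T cells in the 3 genotypes had a Cxcl10 UMI, at median depths of 3598.5 to 4914 UMIs.

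The other members showed that the RARα-TG values did not rest on the chemokines. Gbp2, a guanylate-binding protein, had 136 UMIs in 11 WT cells, 327 in 25 RARα-KO cells and 6 in a single RARα-TG cell. Irf1 had 76, 172 and 5 UMIs. Gbp3, Gbp4, Gbp5, Iigp1, Igtp, Irgm1 and Ifi47, all interferon-induced GTPases, had no UMI in RARα-TG cells, and 9 of the 15 genes were at 0 there. Socs1, which dampens interferon signaling, was the member with the most RARα-TG UMIs (19 in 8 cells, log2 ratio −0.63, −1.48 to 0.17).

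In RARα-KO macrophages the same list was mixed. Cxcl9 and Cxcl10 were 2-fold or more lower than in WT, while 4 genes were 2-fold or more higher, among them Socs1 (48 UMIs in WT and 223 in RARα-KO, log2 ratio 1.69, 1.24 to 2.17, and 0.95 at 1000 UMIs per cell), Igtp (7 and 54 UMIs, 2.42) and Gbp4 (17 and 74 UMIs, 1.60). The median over 14 genes was 0.47, whereas the ratio of the sums was 0.07, since Cxcl10 with 313 and Cxcl9 with 166 UMIs held a large part of the 1064 WT UMIs. The receptor genes did not move with the list: the log2 ratio of Ifngr1 was −0.75 (−1.52 to 0.01) for RARα-KO and 0.27 (−0.54 to 1.05) for RARα-TG, and that of Ifngr2 was 0.05 and 0.50.

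Type I interferon response genes, which include the ubiquitin-like modifier Isg15 and the antiviral enzyme Rsad2, were higher in RARα-KO and lower in RARα-TG than in WT macrophages. The 13 genes summed to 1007 CPM for WT, 3085 CPM for RARα-KO and 90.8 CPM for RARα-TG, with log2 ratios of 1.61 (1.40 to 1.83) and −3.47 (−4.45 to −2.64). At 1000 UMIs per cell they were 0.92 and −2.71. Only 5 genes passed the CPM limit, of which 2 were 2-fold or more higher in RARα-KO, and 4 of the 4 with a ratio were 2-fold or more lower in RARα-TG. Isg15 had 109 UMIs in 14 WT cells, 610 in 29 RARα-KO cells and 9 in 7 RARα-TG cells. Rsad2 had 4 UMIs in 3 WT cells, 91 in 18 RARα-KO cells (log2 ratio 3.99, 2.58 to 5.89, and 1.62 at 1000 UMIs per cell) and none in RARα-TG cells. Irf7, a transcription factor that raises interferon production, had 44, 102 and 0 UMIs. Isg15 carried most of the RARα-KO difference, with 610 of 959 UMIs.

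MHC class I genes showed the same order in their sums at smaller ratios, with UMIs in every cell. The 14 genes, which encode class I heavy chains, β2-microglobulin and the parts that cut and load peptides, summed to 8563 CPM for WT, 15039 CPM for RARα-KO and 4713 CPM for RARα-TG (log2 ratios 0.81, 0.73 to 0.89, and −0.86, −0.99 to −0.73). All 13 genes above the CPM limit were higher in RARα-KO, 4 of them 2-fold or more, and all 13 were lower in RARα-TG, 7 of them 2-fold or more. B2m had 518, 1346 and 197 UMIs (log2 ratios 0.86 and −0.68), H2-K1 had 293, 779 and 103 (0.89 and −0.80) and H2-D1 had 573, 1415 and 194 (0.78 and −0.85). H2-Q4, H2-Q6 and H2-Q7 are near-identical copies between which reads can be split, so their single values are uncertain. The median cell had 8934 CPM for WT, 13041 CPM for RARα-KO and 3702 CPM for RARα-TG. The cells of the genotypes overlapped, with ranges of 5317 to 21685 CPM for WT, 3557 to 24564 CPM for RARα-KO and 2192 to 9437 CPM for RARα-TG.

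MHC class II genes, which present peptides to CD4 T cells, differed less in their sum than among the cells. The 9 genes summed to 33804, 25722 and 28722 CPM, with log2 ratios of −0.39 (−0.44 to −0.35) for RARα-KO and −0.24 (−0.29 to −0.18) for RARα-TG. The RARα-TG cells were split: H2-Aa had UMIs in 5 of 12 RARα-TG cells, against 14 of 20 cells in WT and 23 of 32 in RARα-KO, and the median RARα-TG cell had 4000 CPM of the list whereas the highest had 75702 CPM. H2-Eb1 was likewise found in 5 of 12 RARα-TG cells. Across kinds of cells the RARα-TG value varied, with a log2 ratio of −1.04 in other Lyz2 cells.

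**Figure D3:**
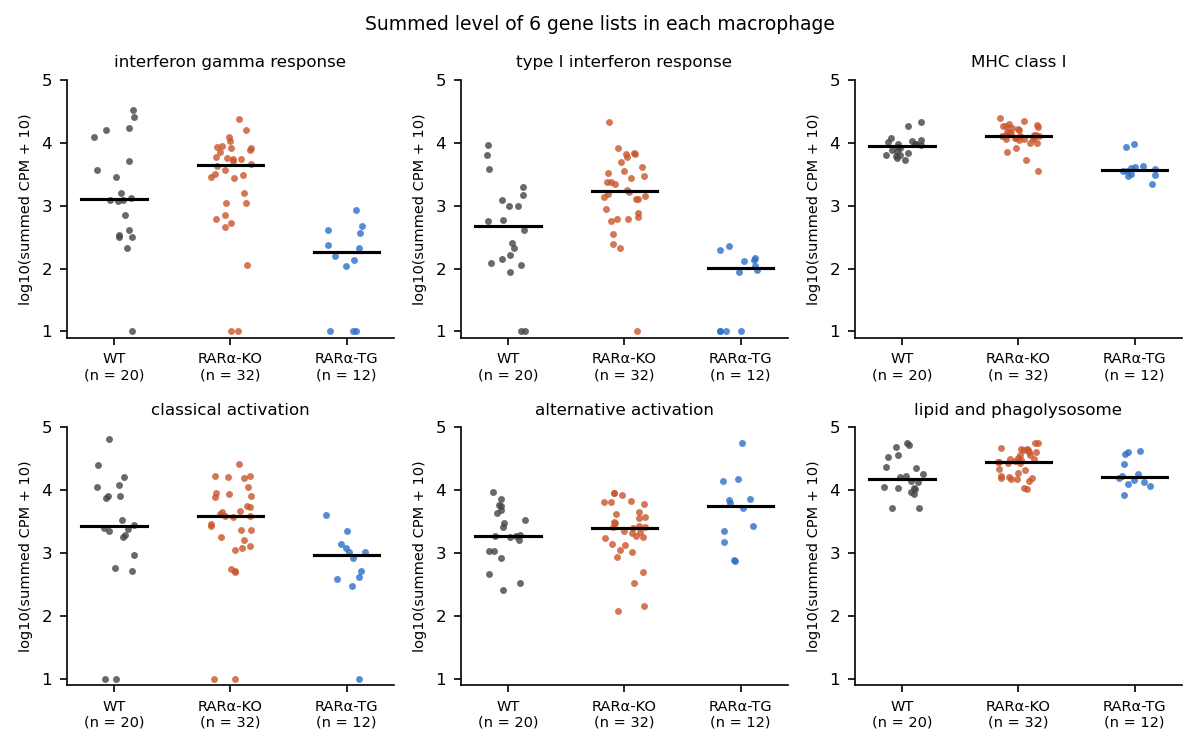
Each point is 1 macrophage, each bar the median of the genotype, and each vertical axis log10 of the summed CPM of a list plus 10, so that cells without a UMI sit at 1. In the interferon γ panel the medians are 1268 CPM for WT, 4466 CPM for RARα-KO and 175 CPM for RARα-TG. The MHC class I and lipid panels hold narrow bands, and the alternative activation panel has its highest cell, at 57139 CPM, in RARα-TG.

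Genes of classical, inflammatory activation were lowest in RARα-TG macrophages. The 13 genes summed to 9469 CPM for WT, 6090 CPM for RARα-KO and 1286 CPM for RARα-TG, with log2 ratios of −0.64 (−0.73 to −0.55) and −2.88 (−3.11 to −2.65). In RARα-TG 6 of 7 genes above the CPM limit were 2-fold or more lower and none was higher. In RARα-KO 2 were higher and 2 lower, and the median of 0.06 did not follow the sum. A single WT cell held 820 of the 2049 WT UMIs of the list. Without the cell with the most list UMIs in each genotype the RARα-KO ratio was −0.20. The median cell had 2638 CPM for WT, 3822 CPM for RARα-KO and 921 CPM for RARα-TG. Nos2 (inducible nitric oxide synthase, ENSMUSG00000020826, chr11:78920787-78960226, GRCm38.p6) had 20 UMIs in 4 of 20 WT cells, 108 UMIs in 16 of 32 RARα-KO cells and none in RARα-TG cells. The log2 ratio was 1.91 (1.21 to 2.68) in RARα-KO, and the level was at least 4.07-fold lower in RARα-TG. At most 0.85% of T cells of a genotype had a Nos2 UMI.

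Cd274, which encodes the checkpoint ligand PD-L1, followed the same order, with 59 UMIs in 12 of 20 WT cells, 181 in 24 of 32 RARα-KO cells and 6 in 4 of 12 RARα-TG cells (log2 ratios 1.09, 0.66 to 1.54, and −2.59, −4.09 to −1.38). Il1b, the cytokine interleukin 1β, had 1238, 846 and 102 UMIs (−1.07 and −2.89), and Ptgs2, which makes prostaglandins, had 231, 345 and 18 (0.06 and −2.97). Tnf had 377, 261 and 11 UMIs, but 352 of the 377 WT UMIs came from a single cell. Without the cell with the most Tnf UMIs in each genotype, the log2 ratio in RARα-KO moved from −1.05 to 2.60 and that in RARα-TG from −4.39 to −1.13. Cells with a Tnf UMI numbered 10 of 20 for WT, 25 of 32 for RARα-KO and 4 of 12 for RARα-TG. Il6 was found in a single WT cell, and Il12a and Il12b had no UMI in any macrophage of the 3 genotypes.

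Genes of alternative activation were highest in RARα-TG macrophages. The 12 genes summed to 2579 CPM for WT, 3400 CPM for RARα-KO and 8699 CPM for RARα-TG, with log2 ratios of 0.40 (0.25 to 0.55) and 1.75 (1.61 to 1.90). Of 9 genes above the CPM limit, 5 were 2-fold or more higher in RARα-TG and none was lower, with a median of 1.15. In RARα-KO 1 of 8 was higher and 1 lower, with a median of −0.10, and the ratio of the sums was −0.034 at 1000 UMIs per cell.

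Arg1, the arginase that depletes arginine, was the broadest of them. It (ENSMUSG00000019987, chr10:24915207-24927470, GRCm38.p6) had 352 UMIs in 13 of 20 WT cells, 841 in 23 of 32 RARα-KO cells and 478 in 11 of 12 RARα-TG cells. Its level was 1627, 2705 and 3616 CPM, with log2 ratios of 0.73 (0.55 to 0.92) for RARα-KO and 1.15 (0.95 to 1.36) for RARα-TG. At 1000 UMIs per cell it was found in 52.6%, 64.5% and 83.3% of cells, and 0.54 to 1.18% of T cells had an Arg1 UMI.

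Mgl2, a lectin of alternatively activated macrophages, had 7 UMIs in 5 WT cells, 10 in 2 RARα-KO cells and 94 in 7 of 12 RARα-TG cells (log2 ratio 4.46, 3.36 to 5.81, in RARα-TG). Chil3, a secreted chitinase-like protein, had 1, 6 and 142 UMIs in 1, 3 and 5 cells (7.86, 5.36 to 13.17), and 93 of the 142 were in a single cell. Retnla, a secreted protein induced by interleukin 4, had 254 UMIs in 2 RARα-TG cells and none in WT or RARα-KO cells, which was at least 139-fold higher, and 84.6% of them were in a single cell. Ccl24, a chemokine for eosinophils, had 6, 0 and 64 UMIs, of which the 64 were in 2 cells. These values thus rested on few cells: without the top cell of each genotype the log2 ratio was 4.17 for Mgl2, at least 4.74 for Chil3, at least 4.41 for Retnla and at least 2.30 for Ccl24. Mrc1, which encodes the mannose receptor, differed less (32, 23 and 30 UMIs, log2 ratios −0.999 and 0.62), and Il10 had no UMI.

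Arg1 and Nos2 were found in the same cells as well as apart. Of 21 macrophages with a Nos2 UMI, 17 also had an Arg1 UMI, which 57 of all 76 macrophages had, and in RARα-KO 13 of 16 Nos2 cells had both. All 16 RARα-KO cells with Nos2 also had Cd274. Both RARα-TG cells with Retnla held Chil3 and Mgl2 as well, and the 7 RARα-TG cells with Mgl2 all held Arg1.

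**Figure D4:**
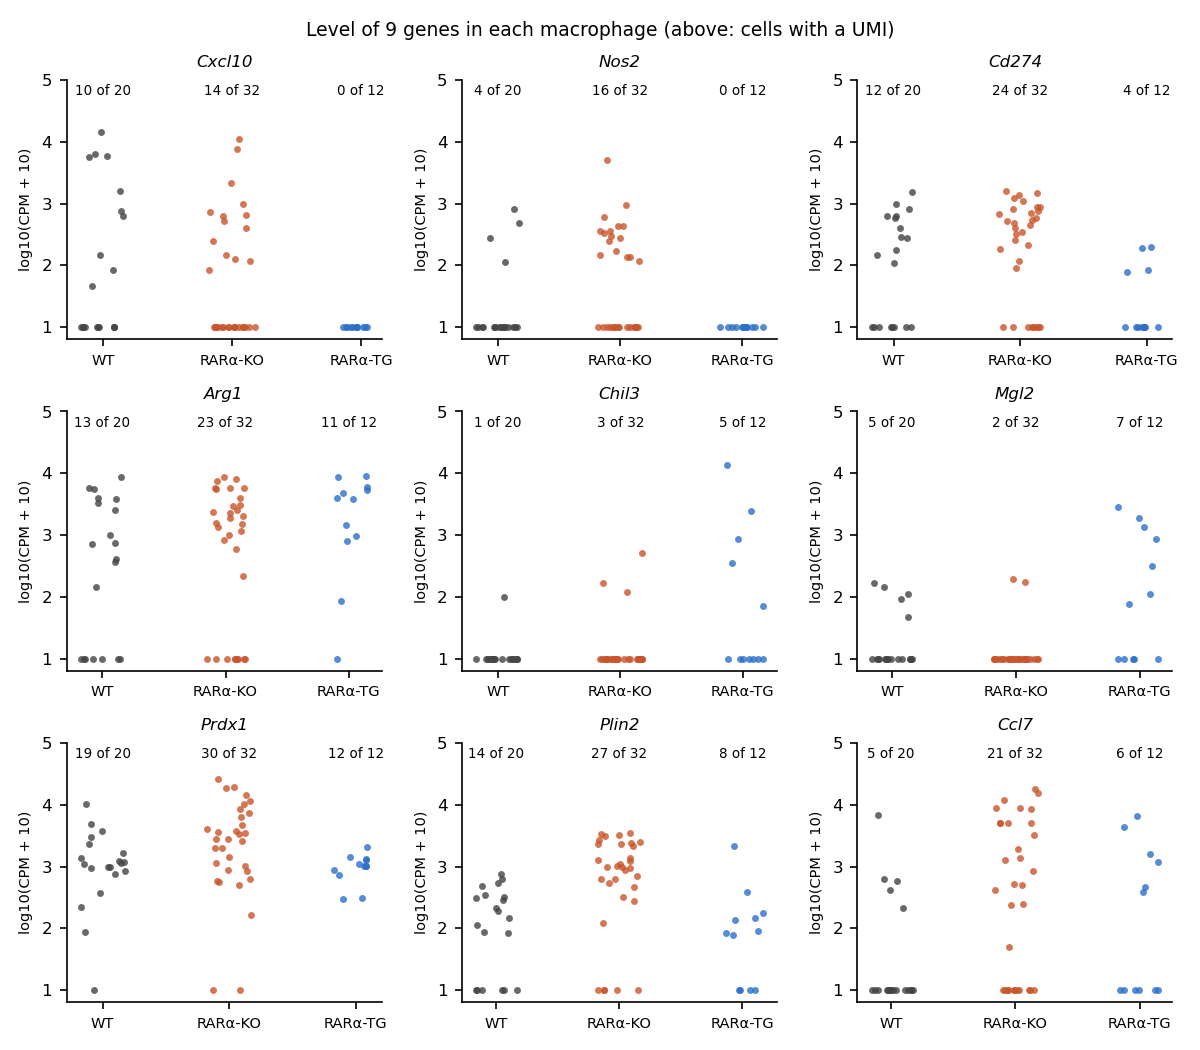
Each point is 1 macrophage, each vertical axis is log10 of the CPM of a gene plus 10, so that cells without a UMI sit at 1, and the numbers above give the cells with a UMI out of the cells of the genotype. Cxcl10 and Nos2 have no RARα-TG cell above 1, Chil3 and Mgl2 have most of their higher cells in RARα-TG, and Plin2 and Ccl7 have theirs in RARα-KO.

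Genes of lipid handling and the phagolysosome were higher in RARα-KO macrophages. The 17 genes summed to 18600 CPM for WT, 31433 CPM for RARα-KO and 20885 CPM for RARα-TG, with log2 ratios of 0.76 (0.70 to 0.81) and 0.17 (0.10 to 0.24). In RARα-KO 8 of 15 genes above the CPM limit were 2-fold or more higher and 1 was lower, with a median of 1.07. Plin2, the coat protein of lipid droplets, had 43 UMIs in 14 of 20 WT cells, 521 in 27 of 32 RARα-KO cells and 39 in 8 of 12 RARα-TG cells (log2 ratio 3.08, 2.63 to 3.56, in RARα-KO). Fabp5, a fatty acid carrier, had 67, 761 and 153 UMIs (2.98 and 1.90). The lysosomal proteases Ctsl, Ctsd and Ctsb had log2 ratios of 2.78, 1.46 and 1.17 in RARα-KO and of 0.80, 0.42 and 0.14 in RARα-TG.

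Other members of this group went the other way or were thin. Apoe, a lipid-carrying protein, was the gene that was 2-fold or more lower in RARα-KO, with 489 UMIs in 14 WT cells, 283 in 17 RARα-KO cells and 502 in 9 RARα-TG cells (log2 ratios −1.31, −1.53 to −1.10, and 0.75, 0.57 to 0.93). Its RARα-KO value was −0.37 at 1000 UMIs per cell. Spp1, the secreted protein osteopontin, had 999, 794 and 371 UMIs (−0.85 and −0.72). Fabp4 had 38 UMIs in 5 RARα-KO cells and none in WT or RARα-TG cells, and Gpnmb had 2, 36 and 7 UMIs, of which 75% of the RARα-KO UMIs were in a single cell. Trem2, a lipid-sensing receptor, had 49, 81 and 52 UMIs (0.20 and 0.80), and its RARα-KO value was −1.07 at 1000 UMIs per cell.

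Genes of oxidative stress, heme and iron were also higher in RARα-KO and, in their sum, lower in RARα-TG. The sum was 53957, 91197 and 35310 CPM, with log2 ratios of 0.76 (0.73 to 0.79) and −0.61 (−0.66 to −0.56). In RARα-KO 3 of 11 genes were 2-fold or more higher and none was lower. Prdx1, a peroxidase, had 372, 2012 and 136 UMIs (log2 ratios 1.91 and −0.74), and Hmox1, which degrades heme, had 192, 945 and 106 (1.78 and −0.15), with a RARα-KO value of 0.55 at 1000 UMIs per cell. The ferritin heavy chain Fth1 held most of the sum, with 8220, 18276 and 2707 UMIs (0.63 and −0.89). Glycolysis and hypoxia genes were higher in RARα-KO for 18 of 18 genes above the CPM limit, but 3 of them 2-fold or more, among them the glucose transporter Slc2a1 (31, 107 and 24 UMIs, 1.26 and 0.34) and Bnip3 (59, 192 and 41, 1.18 and 0.19).

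Chemokine genes did not differ in 1 direction in RARα-KO. The 19 genes summed to 20449, 25752 and 12330 CPM (log2 ratios 0.33 and −0.73), and in RARα-KO 7 of 17 were 2-fold or more higher and 4 lower. The monocyte attractants that bind CCR2 were among the higher ones. Ccl7 (ENSMUSG00000035373, chr11:82045712-82047525, GRCm38.p6) had 41 UMIs in 5 of 20 WT cells, 1077 in 21 of 32 RARα-KO cells and 112 in 6 of 12 RARα-TG cells (4.19, 3.74 to 4.68, and 2.16, 1.63 to 2.71). A single RARα-KO cell held 467 of the 1077 UMIs and a single WT cell 22 of the 41. The RARα-KO ratio was 4.48 without the top cell of each genotype, 2.33 at 1000 UMIs per cell and 2.89 by the mean of per-cell CPM. In other Lyz2 cells Ccl7 went the other way, at 1155 CPM for WT, 381 CPM for RARα-KO and 209 CPM for RARα-TG (−1.60 and −2.47). Ccl2 had 183, 891 and 147 UMIs (1.76 and 0.39), and Ccl12 had 24, 196 and 56 (2.51 and 1.93). Cxcl1, a neutrophil attractant, had 178 UMIs in 5 RARα-KO cells and none in WT or RARα-TG cells, which was at least 41.3-fold higher. In other Lyz2 cells Cxcl1 was lower in RARα-KO than in WT (282 against 434 CPM, −0.62). It was found in 77.2 to 88.7% of MC38 or stromal cells of the 3 genotypes. Ccl5, a T cell attractant, had 81, 25 and 2 UMIs (−2.22 and −4.63). The study also measured CCL5 in tumor CD8 T cells, and the part of T cell RNA in these values was not tested. In RARα-TG 4 of 16 genes were 2-fold or more higher, Ccl24, Ccl7, Ccl12 and Pf4, and 7 were lower.

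Monocyte genes did not move as one in RARα-TG. The 12 genes had a log2 ratio of the sums of 0.71 (0.56 to 0.87) but a median over 9 genes of −0.31 (0.93 at 1000 UMIs per cell), with 3 genes 2-fold or more higher and 4 lower. Ly6c2, which encodes the Ly6C of inflammatory monocytes, had 39 UMIs in 11 WT cells, 166 in 17 RARα-KO cells and none in RARα-TG cells, and Plac8 had 72, 125 and 0. The Ly6c2 level in macrophages was 180, 534 and 0 CPM. T cells held more of it, at 970 CPM for WT, 1168 CPM for RARα-KO and 406 CPM for RARα-TG. The part of T cell RNA in the macrophage values was not tested. Fn1, the matrix protein fibronectin, had 175, 120 and 285 UMIs (−1.07 and 1.41), and Ccr2 had 17, 32 and 29 (0.39 and 1.48). In RARα-KO the sum had a log2 ratio of −0.09 (−0.24 to 0.05).

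Scavenger and efferocytosis receptors had log2 ratios of −0.04 (−0.22 to 0.14) for RARα-KO and −0.57 (−0.83 to −0.32) for RARα-TG. Chemokine and cytokine receptors had −0.17 and −0.32, with Csf1r lower in both (107, 72 and 30 UMIs, −1.09 and −1.12). Genes that regulate T cells had 0.36 and 0.18, which became −0.079 and −0.057 at 1000 UMIs per cell, with medians of −0.01 and −0.22. The cell cycle list had −1.32 (−1.61 to −1.03) and −0.64 (−0.98 to −0.31), but a single WT cell held 191 of its 271 WT UMIs, and without the top cell of each genotype the values were 0.23 and 0.44. Genes of the immediate early and dissociation response had 0.999 (0.91 to 1.08) and 0.47 (0.36 to 0.58), with 6 and 5 of 12 genes 2-fold or more higher and none lower. Among them Hspa1a and Hspa1b, heat shock genes so alike that reads can be split between them, had 19, 467 and 101 and 12, 413 and 47 UMIs. These genes are known to respond to tissue digestion. Their sum was higher in RARα-KO, as were several list sums above, and their part in those values was not tested.

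Genes of the retinoid pathway were near the limit of detection. The 19 genes summed to 62, 134 and 38 UMIs, and 42, 97 and 15 of these were Tgm2, a transglutaminase gene that retinoic acid induces in many cells. Rara itself (ENSMUSG00000037992, chr11:98927800-98974942, GRCm38.p6) had 10 UMIs in 4 WT macrophages, 8 UMIs in 7 RARα-KO macrophages and 5 UMIs in 4 RARα-TG macrophages (log2 ratios −0.84, −2.39 to 0.65, and −0.29, −2.19 to 1.39). Neither Cre nor transgene is meant to act in these cells, and 5′ UMIs need not cover the floxed part, so the RARα-KO value checks nothing. In T cells Rara had log2 ratios of −0.13 for RARα-KO and 1.54 for RARα-TG. Aldh1a1, Aldh1a2 and Aldh1a3, which make retinoic acid, had no UMI in macrophages of the 3 genotypes. Dhrs3, a retinal reductase gene, had 4, 5 and 13 UMIs.

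The genes with the most extreme ratios, ranked by the counting bound nearest 0, repeated these groups and added a few others. In RARα-KO the 10 highest were Cxcl1, Hspa1b, Ccl7, Hspa1a, Gm42031, Slpi, Mmp13, Plin2, Fabp5 and Rsad2. Of these, Gm42031 was also higher in T cells and other Lyz2 cells, as given below beside Rpl29. Slpi, a protease inhibitor, had 10, 240 and 1 UMIs in 4, 13 and 1 cells, and Mmp13, a collagenase, had 8, 154 and 0, with 69.5% of the RARα-KO UMIs in a single cell. The 10 lowest were Serpinb2, Cd81, Pclaf, Vcam1, Il1r2, Cxcl9, Hist1h2ae, Dcstamp, F3 and Rpl29. Of these, Serpinb2 (47 UMIs), Pclaf (33), F3 (35), Hist1h2ae (40) and Vcam1 (51) had over 90% of their WT UMIs in a single cell. Cd81, a tetraspanin, had 86 UMIs in 6 WT cells, 2 in 1 RARα-KO cell and 42 in 10 RARα-TG cells (−5.95, −9.02 to −4.05, in RARα-KO).

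In RARα-TG the 10 highest were Retnla, Rnase2a, Chil3, Ear2, Gdf15, Mgl2, Ccl17, Igf1, Ccl24 and Hspa1a. Rnase2a had 110 UMIs in 3 RARα-TG cells and Ear2 33 in 1, with none in WT or RARα-KO. Both belong to the family of eosinophil-associated ribonuclease genes, and whether reads were split among its members was not tested. Gdf15, a stress-induced cytokine, had 80 of its 87 RARα-TG UMIs in a single cell. Igf1, a growth factor, was spread more widely, with 1, 28 and 29 UMIs in 1, 5 and 7 cells. The 10 lowest were Cxcl10, Cxcl9, Ly6a, Plac8, Tnf, Il1a, Ifi47, Ifi205, Serpinb2 and Irf7. Ly6a, an interferon-inducible surface protein, had 238 UMIs in 17 of 20 WT cells, 737 in 26 of 32 RARα-KO cells and 3 in 3 of 12 RARα-TG cells, which was 2.16-fold higher in RARα-KO and 48.5-fold lower in RARα-TG (log2 ratio −5.60, −7.89 to −4.03). Il1a had 140, 58 and 4 UMIs (−1.79 and −4.42).

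Rpl29, a ribosomal protein gene, had 383, 108 and 284 UMIs (log2 ratio −2.35, −2.67 to −2.04, in RARα-KO). Its log2 ratio in RARα-KO was −3.03 in other Lyz2 cells and −2.78 in T cells but −0.02 in MC38 or stromal cells, a class that takes in the implanted line. Gm42031 had 1, 82 and 0 UMIs in macrophages. In RARα-KO its log2 ratio was 5.83 in macrophages and at least 4.81 in other Lyz2 cells. It was 6.85 in T cells but −0.17 (−0.60 to 0.26) in MC38 or stromal cells. The cause of neither pattern was tested.

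Some of these genes had been picked before from the same cells. The 6 genes that the study describes as raised in RARα-KO myeloid cells summed to 2177, 7972 and 1142 CPM in macrophages (log2 ratios 1.87 and −0.93), with 5 of 5 above the CPM limit 2-fold or more higher in RARα-KO. Of the genes described as raised in RARα-TG myeloid cells, Edil3, Acy1 and Matk summed to 5, 2 and 19 UMIs, and Alx5 was not analysed here. Both lists were chosen on these samples, so their counts are not independent evidence of their direction.

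The same lists were then read in the other cells of the library, to see which values were shared. The interferon γ list had a log2 ratio in RARα-TG of −4.17 in macrophages, −3.99 (−4.41 to −3.60) in other Lyz2 cells and −3.20 (−3.44 to −2.96) in MC38 or stromal cells, but 0.17 (0.13 to 0.21) in T cells. MHC class I gave −0.86, −0.99, −0.99 and 0.02 in the same order. The type I interferon list gave −3.47, −1.16, −2.62 and 0.12. The low RARα-TG values thus also appeared in the other cells that were not T cells, of which RARα-TG had 22 other Lyz2 cells and 16 MC38 or stromal cells.

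Other values differed between macrophages and the other Lyz2 cells. The alternative activation list in RARα-KO had a log2 ratio of 0.40 in macrophages and −1.02 (−1.14 to −0.90) in other Lyz2 cells, and in RARα-TG 1.75 and 0.36 (0.22 to 0.50). The classical activation list in RARα-TG had −2.88 and −0.55 (−0.65 to −0.45), and the lipid list in RARα-KO had 0.76 and 0.06 (0.01 to 0.11). Chil3 was found in 42.9% of the WT, 25.7% of the RARα-KO and 50% of the RARα-TG other Lyz2 cells, against 5%, 9.38% and 41.7% of macrophages. Its level in the other Lyz2 cells had another order, at 1392 CPM for WT, 218 CPM for RARα-KO and 749 CPM for RARα-TG (log2 ratio −0.89, −1.23 to −0.57, in RARα-TG, against 7.86 in macrophages). Prdx1 was higher in RARα-KO in both, with log2 ratios of 1.91 and 1.77, and near 0 in MC38 or stromal cells (0.0034) and T cells (0.09). With 1 sample per genotype, none of these differences between kinds of cells could be tested.

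**Figure D5:**
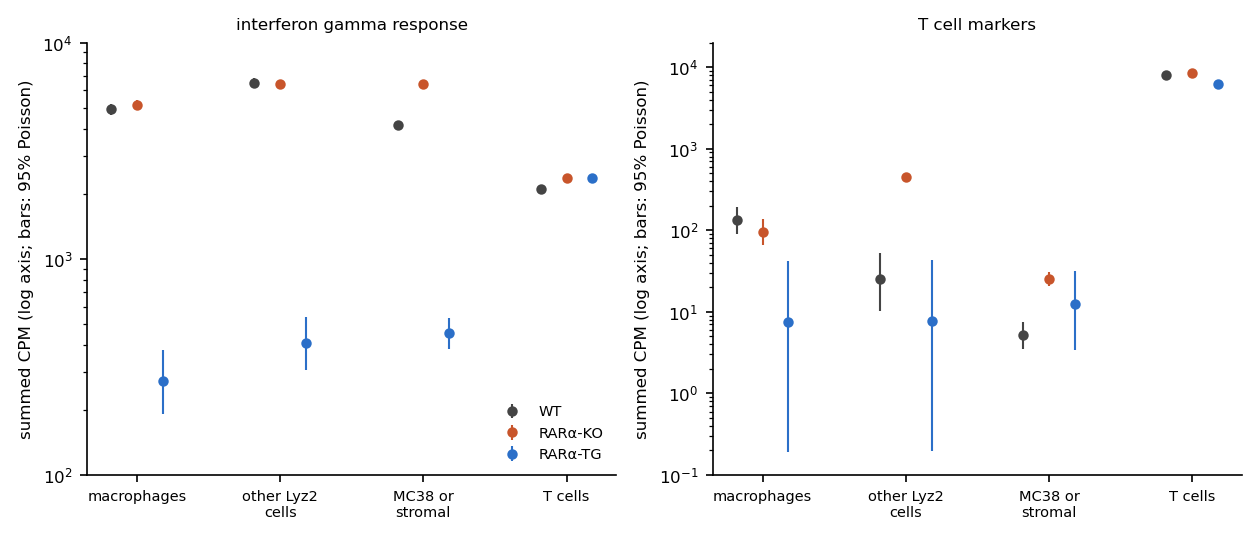
Points are summed CPM of the interferon γ list (left) and of the T cell markers (right) in 4 kinds of cells and 3 genotypes, on log axes, with 95% Poisson intervals as bars. The RARα-TG points of the interferon γ list lie between 272 and 454 CPM in macrophages, other Lyz2 cells and MC38 or stromal cells and at 2366 CPM in T cells, and the T cell marker sums of macrophages lie far below those of T cells in every genotype.

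List levels were also compared across cells, leaving out of each pair the genes that both lists hold. Within the 76 macrophages, the per-cell levels of the interferon γ and type I interferon lists had a Spearman ρ of 0.77, and of 0.52 over 73 cells at 1000 UMIs per cell. It was 0.88 among the 20 WT cells and 0.64 among the 32 RARα-KO cells. Type I interferon and MHC class I levels had a ρ of 0.67 (0.46 at equal depth), and interferon γ and MHC class I levels of 0.57 (0.51), with 0.60 within WT and 0.16 within RARα-KO. Alternative activation and T cell regulation genes, compared without Arg1, Tgfb1 and Il10, which both lists hold, had the lowest ρ, −0.46, which was −0.15 at equal depth. Of 120 pairs among 16 lists, 4 had a ρ of 0.5 or more and 3 of −0.3 or less. All cells shared 1 library and differed in depth, so these are descriptions.

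Unsupervised clustering divided the macrophages into 3 groups of 16, 41 and 19 cells, which were left unnamed. The first held 2 WT and 14 RARα-KO cells. The second held 11 WT, 7 RARα-KO and all 12 RARα-TG cells and 11 of the 12 cells without a dominant hashtag. The third held 7 WT and 11 RARα-KO cells and 1 cell without a dominant hashtag. The leading genes of the first were Selenom, Cd36, Id1, Fabp4, Hspa1b, Il18bp, Ccl7 and Ier5l. Those of the second were Retnla, Cbr2, Mki67, Tnfrsf9, Rnase2a, Icos, Thy1 and Igfbp4. The second cluster held 9 cells with 2 or more T cell marker UMIs and 1211 CPM of T cell markers, and Icos, Thy1 and Tnfrsf9 are T cell genes. Its 12 RARα-TG cells had 1 T cell marker UMI in all. The third was led by F3, Cxcl1, Serpinb2, Cxcl9, Nrg1, Csta2, Plac8 and Csf3. In the 3 clusters the classical activation list had 3169, 2031 and 16292 CPM and the lipid and phagolysosome list 36202, 20547 and 20122 CPM. The clusters were drawn from the same counts, so these levels describe them only.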

How the data were processed

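The library held 3 genotypes, told apart by hashtag, with 1 sample each. The authors aligned reads to mm10 with Cell Ranger (6.1.0 per the labels, while the header of the matrix names major version 4) and deposited raw UMI counts per gene and barcode, the hashtag counts and a TCR contig table. The matrix held 32285 genes and 730308 barcodes, of which 5600 had 500 or more gene UMIs. No mitochondrial filter and no doublet caller was applied. Barcodes without a dominant hashtag (top hashtag of 10 or more UMIs and 3 times the next or more) were left out of all genotype comparisons. Barcodes with a clonotype were left out of all but those of T cells. For macrophages this removes pairs with a T cell that had a called clonotype. It also removes those pairs of 2 genotypes whose top hashtag was under 3 times the next.

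UMIs were summed per genotype and given as CPM. Ratios have exact binomial intervals, sums exact Poisson intervals and shares Clopper-Pearson intervals at 95%, all for counting error only. Where a group had no UMI of a gene, 3 UMIs over the group were taken as its upper limit, and no ratio was given where both counts were 3 or fewer. List medians and counts used genes with a mean of 50 CPM or more over the 3 genotypes, and list sums used every gene. The recovery of known ratios was tested on simulated data. Named genes were list members, the 10 highest and 10 lowest per comparison by the counting bound nearest 0, and the 8 leading genes per cluster. Clusters came from Leiden clustering (resolution 0.5, 15 principal components, 2000 variable genes) with scanpy 1.11.5 (Python 3.11.15; the other steps used numpy 2.4.6 and scipy 1.17.1). Coordinates are from RefSeq on GRCm38.p6, which named 339 of 341 genes. Alternatives were other limits on UMIs, C1q, collagen, hashtags, mitochondrial share and other cell types' markers, thinning, per-cell means, another denominator, other CPM limits and another resolution. The members and gene lists were chosen with earlier results of these data known.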

Additional observations from a re-analysis of the deposited data

Results flagged for a closer look

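The ratios of 3 gene lists had opposite signs in macrophages and in T cells of the same library, with neither ratio near 0. Both counting intervals lay off 0, and these differences were not tested because each genotype was 1 sample. Lists with a ratio near 0 in either kind of cell, such as interferon γ in RARα-TG T cells, were not flagged. The retinoid list and the lists from the study were not searched. The classical activation list had a log2 ratio of RARα-KO over WT of −0.64 in macrophages and 0.73 in T cells, where its level was 152 CPM in WT and 253 CPM in RARα-KO. Its macrophage ratio leaned on a single WT cell with 820 of 2049 UMIs. It was −0.20 without the cell with the most list UMIs in each genotype. The scavenger and efferocytosis receptors had a log2 ratio of RARα-TG over WT of −0.57 in macrophages and 2.03 in T cells, where their level was 13.2 CPM in WT and 53.9 CPM in RARα-TG. Both lists were thus at a low level in T cells. The T cells were all barcodes with a clonotype, so they took in those that also met the macrophage limits (2 WT, 4 RARα-KO and 1 RARα-TG). The part of these barcodes in the T cell ratios was not tested. The oxidative stress, heme and iron list had a log2 ratio of RARα-TG over WT of −0.61 in macrophages and 0.62 in T cells.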

How the results depend on the processing

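Each comparison rested on 1 multiplexed sample per genotype, on 20 WT, 32 RARα-KO and 12 RARα-TG macrophages and on 12 to 36 UMIs for the interferon sums of RARα-TG, so counting error limits single genes and the spread between mice is not measured. No paired analysis was possible because each genotype was 1 sample. Leaving out a replicate was not possible for the same reason. The shares of macrophages (18 values) stayed within their counting intervals under every alternative. The numbers of macrophages per genotype (24 values) have no such interval and stayed within a fixed fold of their main values. Of the list ratios, 343 stayed within their counting interval, 105 moved beyond it and 6 whose interval lay off 0 changed sign. Of the gene ratios the numbers were 2099, 259 and 8. Ratios whose interval held 0, such as that of interferon γ in RARα-KO, were counted as moved where they crossed 0 and left the interval. Unless a value shows otherwise, the cause was not tested. All ratios below are log2 ratios of sums over WT.

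With a C1q sum of 10 or more, RARα-KO gave 0.42 for interferon γ and 2.04 for type I interferon, and RARα-TG gave −3.32 for classical activation, 0.24 for lipid, −0.47 for MHC class II and −0.56 for oxidative stress. With a stricter hashtag limit (20 UMIs and 5 times the next), RARα-KO gave 0.25 for interferon γ, 1.99 for type I interferon, 0.24 for alternative activation, 0.70 for lipid and −0.48 for MHC class II, and RARα-TG gave 2.002 for alternative activation and −0.14 for MHC class II. With a looser one (5 UMIs and 2 times the next), RARα-KO gave −0.78 for classical activation, 0.63 for lipid, −0.53 for MHC class II and 0.61 for oxidative stress, and the cell cycle median reversed to 0.045.

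Without cells with 2 or more T cell marker UMIs, RARα-KO gave −0.81 for classical activation, 0.56 for alternative activation and −0.57 for MHC class II, and RARα-TG gave −0.33 for MHC class II. With CPM taken without mitochondrial, ribosomal and receptor genes, RARα-KO gave −0.74 for classical activation, 0.65 for lipid, −0.50 for MHC class II, 0.71 for MHC class I and 0.65 for oxidative stress, and RARα-TG gave 0.24 for lipid, −0.16 for MHC class II and −0.54 for oxidative stress.

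Thinned to 1000 UMIs per cell, which left out 1 WT and 1 RARα-KO cell, RARα-KO gave −0.079 for interferon γ, 0.92 for type I interferon, −0.85 for classical activation, 0.53 for lipid, 0.71 for MHC class I and 0.68 for oxidative stress, and reversed to −0.034 for alternative activation and −0.079 for T cell regulation. RARα-TG gave −3.21 for classical activation, 1.47 for alternative activation, 0.24 for lipid and −0.71 for MHC class II, and reversed to −0.057 for T cell regulation. Single genes reversed to −1.71 (H2-Q6), −0.028 (H2-Q7) and −0.44 (Ifi204) in RARα-KO and to 0.25 (Il1r2) in RARα-TG.

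With the mean of per-cell CPM, in which each cell weighs alike, RARα-KO gave −0.21 for interferon γ, 1.12 for type I interferon, −0.52 for classical activation, 0.13 for alternative activation, 0.47 for lipid, 0.52 for MHC class I and 0.45 for oxidative stress, with H2-Q6 at −0.42 and Irf7 at −0.0093. RARα-TG gave 0.015 for lipid, −0.65 for MHC class II, −1.12 for MHC class I and −0.79 for oxidative stress, and reversed for cell cycle (0.50, median 0.66) and Pclaf (0.66).

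Leaving out the cell with the most UMIs was chosen after seeing the data. For lists, RARα-KO then gave 0.38 for interferon γ, −0.20 for classical activation, 0.83 for lipid, −0.35 for MHC class II, 0.72 for MHC class I and 0.23 for cell cycle, which reversed. RARα-TG gave 1.36 for alternative activation, −0.39 for MHC class II, −1.05 for MHC class I and 0.44 for cell cycle, which reversed. Tnf in RARα-KO reversed to 2.60. Without the top cell of each gene, 172 of the 186 higher and 164 of the 225 lower genes in RARα-KO and 132 of 157 and 224 of 249 in RARα-TG remained past 2-fold.

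In RARα-KO, 295 genes were 2-fold or more higher after thinning, 476 higher and 620 lower at a mean of 20 CPM, and 101 and 105 at 100 CPM. In RARα-TG, 556 were higher and 602 lower at 20 CPM, 69 and 120 at 100 CPM, and 262 higher by per-cell means. At Leiden resolution 1 there were 5 clusters. Under all alternatives run, the RARα-TG ratios of the interferon γ, type I interferon and classical activation lists stayed below 0 and that of alternative activation above 0.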

Other observations

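The 12 macrophages without a dominant hashtag had a median of 11575 gene UMIs, near that of the others, and the ratio of their top to their next hashtag had a median of 1.48, against 8.31, 20.9 and 10.9 for the WT, RARα-KO and RARα-TG macrophages. Of the 12, 8 had a TCR contig outside a called clonotype. Their cytotoxic genes summed to 3513 CPM and their T cell markers to 3520 CPM, against 8653 and 7780 CPM in T cells.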
